A study of Xenopus laevis with 16 samples.

Results

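Xenopus laevis carries most of its genes as an L and an S copy, called homeologs, and this account describes the gene pairs whose copies moved in opposite directions in explants given the transcription factor Ptf1a. A pair was taken when 1 copy was at least 2-fold higher and the other at least 2-fold lower in Ptf1a caps than in control caps after 25 h. Levels were counts per 1000000 counts of the library (CPM), the fold was taken on mean CPM + 0.1, and each copy had to reach a mean of 0.5 CPM in at least 1 of these groups. Of 9295 gene symbols with both an L and an S row, 6427 passed this level in both copies, and 44 pairs (88 copies, 0.685% of the expressed pairs) moved in opposite directions. For comparison, both copies were at least 2-fold higher in 1059 expressed pairs (16.5%) and at least 2-fold lower in 115 (1.79%). The pairs were chosen by these 25 h CPM values of Ptf1a and control caps, which are therefore given as a description with no test. In each pair the copy that was higher with Ptf1a at 25 h is called the Ptf1a-high copy here, and the other the Ptf1a-low copy.

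The explants were animal caps, the ectoderm cut from blastula embryos, which forms epidermis when cultured alone. Embryos had received 20 pg of mRNA into the cells of the 2-cell stage. It encoded ptf1a-GR, or GR-neurog2, or else a form of Ptf1a with both named tryptophans replaced, ptf1aW224A/W242A-GR, called the mutant here. GR is the hormone-binding domain of the glucocorticoid receptor, which keeps a fused factor inactive until dexamethasone is added. All caps, the controls (CC) included, were kept in dexamethasone for 6 h or 25 h, and the labels do not make plain whether the controls had been injected. Each of the 8 groups had 2 libraries, with replicate numbers 1 and 2, and total counts per library ranged from 31436437 to 228346016. Values below are given in the order of replicate number 1, then 2. Nothing in the labels states whether the libraries of a group came from different embryo batches, and each p therefore measures only the spread between these libraries.

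The L and S copies descend from different ancestral frogs whose genomes came together by hybridisation, and each copy has since kept its own chromosome and its own flanking DNA. Homeologs often share a pattern of expression, but copies can also divide their times and tissues of expression between them. Ptf1a is a bHLH factor that works with the Notch pathway protein Rbpj and is known for promoting inhibitory neurons, and Neurog2 is a bHLH factor known for starting neurogenesis. Changes of tryptophans in its C-terminal part weaken the contact of Ptf1a with Rbpj. Roles of the genes given below are mostly known from mammals.

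At 6 h the injected factors were found where the labels place them. The copy ptf1a.L was at 203 and 212 CPM in Ptf1a caps and 177 and 182 CPM in mutant caps, against 0.203 and 0.254 CPM in control caps. The copy neurog2.L was at 190 and 252 CPM in Neurog2 caps, against 0.326 and 0.509 CPM in control caps. At 25 h this check was weaker. There ptf1a.L was at 2.47 and 3.34 CPM in Ptf1a caps, 5.68 and 3.11 CPM in mutant caps and 0.302 and 0.115 CPM in control caps. At 25 h neurog2.L was at 9.86 and 8.2 CPM in Neurog2 caps, but also at 5.5 and 5.21 CPM in Ptf1a caps. Among cell type markers, the epidermal list summed to 65945 to 74176 CPM in control caps and 43324 to 48574 CPM in Ptf1a caps at 25 h. Most of this sum came from krt5.7. Both krt5.7 copies, tp63.S, grhl3.L and has1.S were lower in Ptf1a caps, but not every copy was. The copy tp63.L was at 155 and 133 CPM in control caps and 153 and 131 CPM in Ptf1a caps, and grhl3.S at 339 and 338 CPM and 441 and 258 CPM. The neuronal list summed to 21.1 to 22 CPM and 558 to 688 CPM in the same groups, and the multiciliated cell list to 176 to 177 CPM and 35.9 to 49.5 CPM. The list of ionocytes and small secretory cells summed to 461 to 572 CPM in control caps and 71.6 to 203 CPM in Ptf1a caps. Its copy tph1.L went the other way, at 1.99 and 2.83 CPM in control caps and 4.23 and 3.17 CPM in Ptf1a caps. Higher sums in Ptf1a caps were found for the neural crest list (0.275 to 0.634 CPM in control caps, 74.9 to 93.6 CPM in Ptf1a caps), the endoderm list (71.3 to 80.2 CPM, 655 to 736 CPM) and the cell cycle list (526 to 627 CPM, 1320 to 1467 CPM). Nearly all of the endoderm sum was a2m.S (70.2 and 79.3 CPM, 654 and 735 CPM). Every other copy of that list was under 1 CPM in both groups, and gata6.S was lower with Ptf1a. In the cell cycle list mcm6.L was lower too (5.63 and 3.63 CPM, 2.56 and 2.54 CPM), as was mcm3.L. The mesoderm and muscle list overlapped between the groups, at 5.11 to 10.7 CPM and 7.02 to 9.1 CPM, and the blood list stayed below 1 CPM in both. The part of these marker differences in the values of the 44 pairs was not tested. In whole explants, fewer cells of a type and less RNA per cell cannot be told apart.

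The 44 pairs were split evenly between the subgenomes, with the L copy higher in 22 and the S copy in 22. Ptf1a-high copies were higher by 1.03 to 5.01 on the log2 scale, with a median of 1.79, and Ptf1a-low copies were at log2 ratios whose sizes ran from 1.01 to 2.45, with a median of 1.39. With the copies of a pair added together the log2 ratio had a median of -0.34, against 0.44 over all expressed pairs. The sum stayed between -1 and 1 in 30 pairs, reached 1 or more in 5 and -1 or less in 9. A gene-level total would thus show less than a 2-fold change in most of these genes. The sums use the libraries that chose the pairs, and copies that move in opposite directions offset each other in a sum. These counts have no share over all expressed pairs beside them. Neither they nor the median of the sums is read as particular to the set. In 39 of the 44 pairs the libraries of Ptf1a and control caps did not overlap in either copy, beside 59.0% of the expressed pairs. The exceptions were tacr1, dok6, maob, serpinc1 and calb1. The rule asked these same libraries for at least a 2-fold difference in both copies. It thus favours a share above that of all expressed pairs, which is no support for the set.

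The level scale shifts these folds. Over all expressed copies the median log2 ratio of Ptf1a to control caps at 25 h was 0.48 with library totals, 0.12 with TMM scaling and -0.02 with DESeq2 size factors. The copies of the 44 pairs lay lower than with library totals by about 0.3 with TMM scaling and 0.41 with DESeq2 size factors. All 44 pairs stayed opposite in sign under both scalings, while 35 and 29 of them still passed the 2-fold rule in both copies. Shifts smaller than the 2-fold limit cannot change a sign here, so the unchanged signs are no support for the set. When 1 of the 4 libraries was left out, 31 to 33 of the 44 still passed, and 42 stayed opposite in sign without Ptf1a library 1 and 43 without control library 2. The ratio of a pair's copies within a library is free of this scaling.

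**Figure D1:**
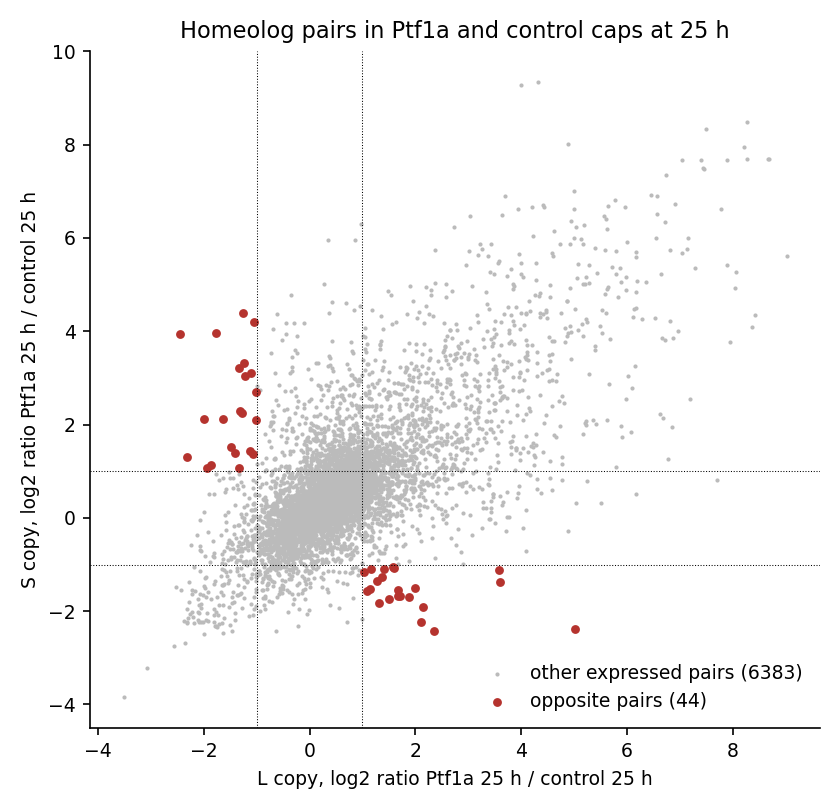
Log2 ratio of mean CPM + 0.1 in Ptf1a over control caps at 25 h, for the L copy (horizontal axis) and the S copy (vertical axis) of each expressed pair. Red points are the 44 opposite pairs, which fill the upper left and lower right corners beyond the dotted 2-fold lines, and grey points are the other 6383 expressed pairs.

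The grouping of pairs by role below is descriptive and has no share over all expressed pairs beside it. Several of the pairs encode molecules of the cell surface and of contact between cells. The adhesion protein gene clmp had the widest split. Its L copy (build 9.1, chromosome 7L, positions 60039722 to 60087301, minus strand) was at 0.22 and 0.115 CPM in control caps and at 11.7 and 5.33 CPM in Ptf1a caps at 25 h. Its S copy (chromosome 7S, 43582399 to 43649040, plus strand) was at 5.24 and 5.65 CPM in control caps and at 1.2 and 0.712 CPM in Ptf1a caps. The log2 ratios were 5.01 and -2.39. Per kilobase of gene model the S copy had the higher level in control caps (2.64 against 0.108 CPM per kb) and the L copy in Ptf1a caps (5.48 against 0.464 CPM per kb). Neurog2 caps held 1.63 and 2.2 CPM of clmp.L with 2.92 and 3.01 CPM of clmp.S, and mutant caps held 0.437 and 0.644 CPM with 1.41 and 2.17 CPM. In the 8 libraries of 6 h, clmp.L was at 0.724 to 1.75 CPM and clmp.S at 0.162 to 0.529 CPM.

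The gene efnb2, which encodes the ligand ephrin-B2 of Eph receptors, gave a similar exchange at higher levels. Its S copy (chromosome 2S, 100142473 to 100175773, plus strand) was at 3.15 and 8.1 CPM in control caps and at 51 and 55.6 CPM in Ptf1a caps at 25 h. Its L copy (chromosome 2L, 117497664 to 117532214, plus strand) was at 102 and 85.7 CPM in control caps and at 42.5 and 31.6 CPM in Ptf1a caps. The log2 ratios were 3.22 and -1.34, yet the sum of both copies differed by only -0.14. In Neurog2 caps efnb2.S was at 10.1 and 34.5 CPM, and in mutant caps at 15.3 and 11.7 CPM. Per kilobase of gene model, efnb2.L was the more abundant copy in 25 h control caps (19.9 against 1.37 CPM per kb) and efnb2.S in Ptf1a caps (13 against 7.88 CPM per kb).

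Other surface and matrix genes of the set were sdk2 and ptprb, an adhesion molecule and a receptor phosphatase, and the secreted or matrix proteins olfml2a, otog, nptx2 and cbln1. The actin crosslinker gene flnc, which is not a surface or matrix gene, is listed with them here. The matrix gene olfml2a had the highest log2 ratio of these 7, 3.6, with its L copy at 0.0275 and 0.577 CPM in control caps and 5.55 and 4.03 CPM in Ptf1a caps. Levels of sdk2 were high early, with sdk2.S at 195 to 543 CPM at 6 h and at 5.08 to 22.2 CPM at 25 h. The copy sdk2.L had a log2 ratio of 1.92 in number 1 and 0.23 in number 2.

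Transporters, channels and receptors formed a second group. The glutamine transporter gene slc38a3 had the second lowest log2 ratio of any Ptf1a-low copy, -2.42, after lnx2. Its S copy (chromosome 4S, 99439042 to 99486987, plus strand) was at 98 and 123 CPM in control caps and 23.6 and 17.5 CPM in Ptf1a caps at 25 h. Its L copy (chromosome 4L, 120505434 to 120550825, plus strand) was at 2.21 and 2.11 CPM in control caps and 13.6 and 9.29 CPM in Ptf1a caps. The Ptf1a caps were the only 25 h group in which slc38a3.L exceeded 3 CPM, since Neurog2 caps were at 1.6 and 0.824 CPM and mutant caps at 1.55 and 1.1 CPM. Per kilobase the S copy was still the higher one in Ptf1a caps (4.68 against 2.81 CPM per kb), and the sum of both copies was lower there by -1.81 on the log2 scale.

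The sugar-phosphate transporter gene slc37a2 was most abundant early. Its L copy was at 124 to 186 CPM in all libraries at 6 h, at 6.84 and 9.78 CPM in 25 h control caps, and at 33.9 and 27.4 CPM in 25 h Ptf1a caps. The level in 25 h Ptf1a caps thus lay between the early and the late control caps, and slc37a2.S stayed at 2.06 CPM or below in every library. The gap junction gene gjd3 was near the level limit, with gjd3.L at 0.673 and 0.342 CPM in Ptf1a caps and 0.0825 and 0 CPM in control caps. The substance P receptor gene tacr1 had a Ptf1a-high L copy at 7.2 and 5.51 CPM against 1.58 and 1.15 CPM in control caps. Its S copy overlapped between the groups, at 5.45 and 1.73 CPM against 23 and 4.73 CPM.

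In the same group stood the calcium channel subunit genes cacnb2 and tmem37, the sodium pump regulator fxyd1, the Wnt receptor fzd6, the heart and muscle membrane protein gene popdc2 and the platelet receptor subunit gene gp1bb. The copy tmem37.L had 0 counts in both control libraries at 25 h and was at 1.68 and 0.522 CPM in Ptf1a caps, so its log2 ratio of 3.59 depends on the 0.1 CPM added. Its partner tmem37.S was at 0.976 and 0.865 CPM in control caps and 0.481 and 0.266 CPM in Ptf1a caps.

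Enzymes made up a further group. The ganglioside synthase gene b4galnt1 had its S copy (chromosome 2S, 123956804 to 124024237, minus strand) at 24.6 and 22.5 CPM in Ptf1a caps and 1.28 and 1.56 CPM in control caps. Its L copy (chromosome 2L, 142811391 to 142849088, minus strand) was at 6.14 and 2.58 CPM against 16.7 and 13.6 CPM. In Neurog2 caps b4galnt1.S was at 13.3 and 43.4 CPM and in mutant caps at 18.3 and 5.48 CPM, while b4galnt1.L stayed at 16.8 to 30.7 CPM in these 4 libraries. The neuronal tubulin gene copy tubb2b.S differed in the same direction between these libraries, at 196 and 705 CPM in Neurog2 caps and 285 and 58.5 CPM in mutant caps. What these libraries share was not tested.

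The dihydroceramide desaturase gene degs1, an enzyme of sphingolipid synthesis, was among the most abundant pairs. Its S copy (chromosome 5S, 12735458 to 12754443, minus strand) was at 10.3 and 9.06 CPM in control caps and 22.7 and 28.4 CPM in Ptf1a caps. Its L copy (chromosome 5L, 16503002 to 16524515, plus strand) was at 135 and 164 CPM against 53 and 59.7 CPM. At 6 h all 8 libraries held degs1.S at 17.1 to 26.7 CPM and degs1.L at 35.3 to 54.1 CPM. The 25 h Ptf1a caps lay at or slightly above the upper part of these early ranges in both copies.

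The neighbouring galactosyltransferase genes b4galt4 and b4galt3-like.1 were both in the set, with the S copies Ptf1a-high and the L copies Ptf1a-low. The S copy of b4galt4 was at 22.3 and 14.5 CPM in Ptf1a caps and 0.728 and 1.1 CPM in control caps, a log2 ratio of 4.19. Its L copy was at 12.7 and 11.4 CPM against 23.1 and 26.9 CPM. On chromosome 2L the models of b4galt4.L (5994030 to 6023118, minus strand) and b4galt3-like.1.L (5962310 to 5998473, plus strand) overlap at their ends, and their log2 ratios were alike, at -1.05 and -1.01. On chromosome 2S the models of b4galt4.S (25128800 to 25147804, plus strand) and b4galt3-like.1.S (25151413 to 25170911, minus strand) do not overlap. Whether counting used strand is not given in the sources used here, so reads of the L copies cannot be told apart where the models overlap, and the L values are uncertain.

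Of the other enzyme genes, the oxygen-sensing prolyl hydroxylase gene egln3 had log2 ratios of 1.67 (L) and -1.67 (S), and the microtubule-severing gene katnal1 had 2.13 (S) and -2 (L). The tubulin-modifying ligase gene ttll7 had its S copy at 9.84 and 7.54 CPM in Ptf1a caps against 0.234 and 0.404 CPM in control caps. Its L copy was at 6.41 and 5.36 CPM against 12.7 and 15.7 CPM. The monoamine oxidase gene maob was low in both copies, at most 3.96 CPM in any library.

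The remaining pairs encode regulators and intracellular proteins. The ubiquitin ligase gene lnx2, whose protein binds the Notch inhibitor Numb, had the largest smaller change of all 44 pairs. Its S copy (chromosome 2S, 138507262 to 138596515, plus strand) was at 3.21 and 3.49 CPM in Ptf1a caps and 0.137 and 0.115 CPM in control caps. Its L copy (chromosome 2L, 159003524 to 159117302, plus strand) was at 3.82 and 2.24 CPM against 20 and 14 CPM. Neurog2 caps held lnx2.S at 0.365 and 2.84 CPM and mutant caps at 0.97 and 0.429 CPM.

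The G protein regulator gene rgs19 had late levels in Ptf1a caps that lay between the early ones and those of late control caps. Its S copy was at 22.1 and 14.9 CPM in Ptf1a caps and 7.6 and 9.23 CPM in control caps at 25 h, after 26.1 to 35.1 CPM in all libraries at 6 h. Its L copy was at 6.8 and 6.14 CPM against 25 and 22.4 CPM, after 1.53 to 2.46 CPM at 6 h. Among the same class, the endosomal sorting gene snx22 had its L copy at 24 and 23.9 CPM against 5.85 and 8.71 CPM in control caps, with snx22.S at 6.99 and 5.61 against 17.2 and 23.4 CPM. The lipid-transfer protein gene stard5 had log2 ratios of 1.4 (L) and -1.09 (S).

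DNA-binding factors were encoded by pax7 and the zinc finger gene znf329. The pair pax7, a neural crest and muscle progenitor factor gene, had pax7.L at 0.481 and 0.665 CPM against 0.234 and 0.173 CPM, and pax7.S at 0.898 and 1.38 against 3.42 and 3.46 CPM. The other members were the vesicle GTPase gene rab34, the adaptor dok6, the exchange factor mcf2l.2, tacc1, trim67, lrmp, the calcium-binding protein gene calb1, the clotting inhibitor serpinc1, the secreted protein gene fam3b and the troponin gene tnni2. Of these rab34 had log2 ratios of 1.67 (L) and -1.55 (S), and tacc1 of 1.08 (L) and -1.57 (S).

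**Figure D2:**
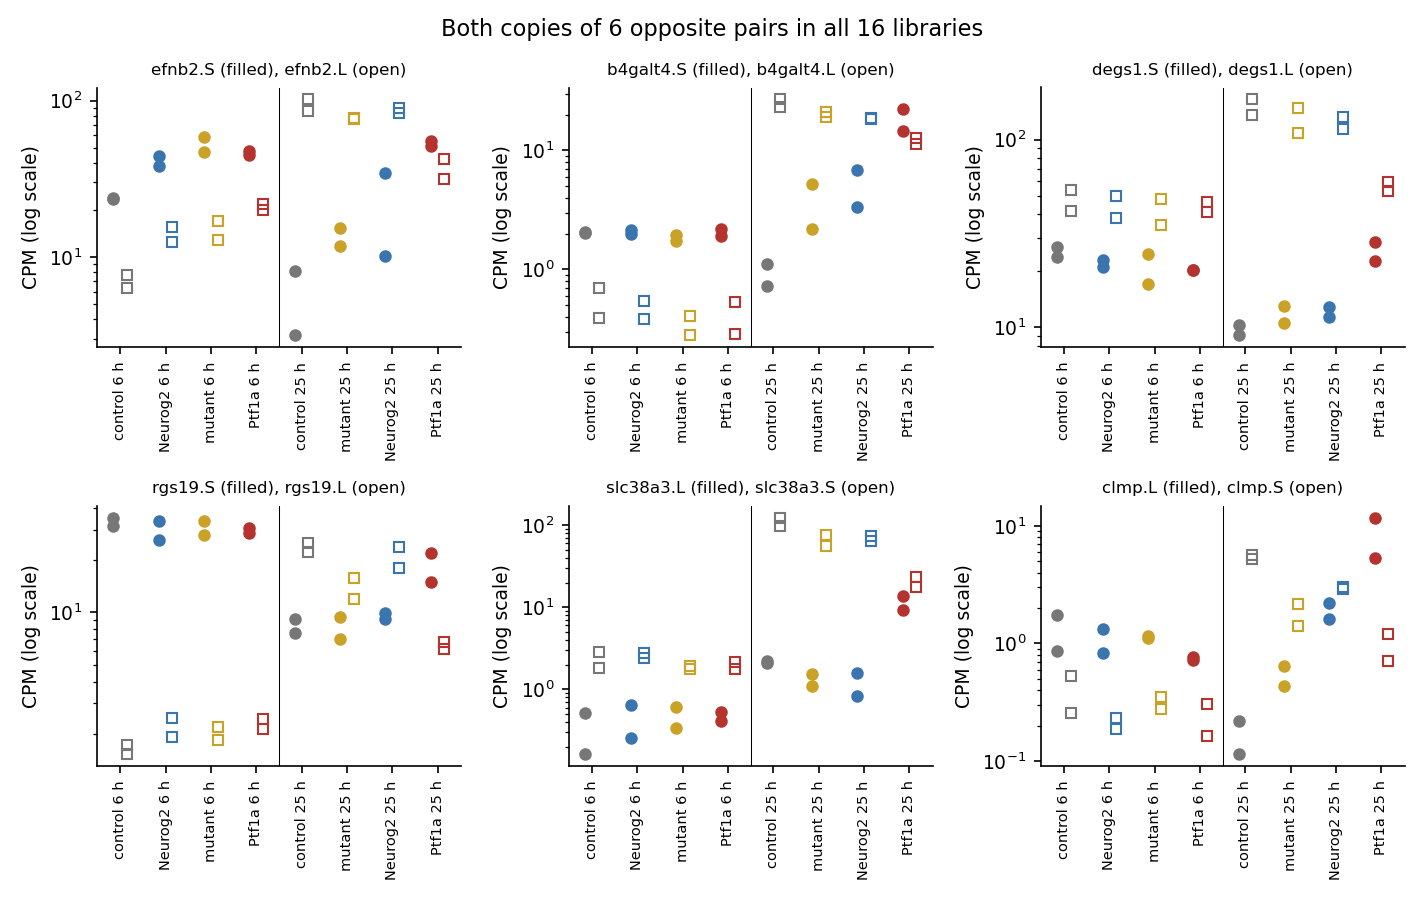
CPM on a log axis of both copies of 6 pairs in all 16 libraries, with filled circles for the Ptf1a-high copy, open squares for the Ptf1a-low copy, and 2 libraries per group. At 25 h (right of the line) the copies of efnb2 in Ptf1a caps lie between 31.6 and 55.6 CPM, while in control caps they lie at 3.15 and 8.1 CPM against 102 and 85.7 CPM.

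The early caps give the levels from which the copies started. Per kilobase of gene model, the Ptf1a-high copy was the more abundant of its pair in 22 of 44 pairs in 6 h control caps, in 4 in 25 h control caps and in 29 in 25 h Ptf1a caps. The 25 h groups chose the pairs and named the copies, so the rule itself favours the difference between 4 and 29. Of the Ptf1a-low copies, 29 were higher in 25 h Ptf1a caps than the mean of 6 h control caps. The rule places each of them higher still in 25 h control caps. Of the Ptf1a-high copies, 10 were lower in 25 h Ptf1a caps than in 6 h control caps. These were the copies of slc37a2, cacnb2, znf329, sdk2, pax7, fzd6, rgs19, stard5, ptprb and b4galt3-like.1. By the rule their level in 25 h control caps is lower again. Counts of copies above or below the 6 h level have no share over all expressed copies beside them. They are not read as particular to these pairs. The level minimum, set at 25 h, favours copies that rise with time, and levels at different times depend on the scaling.

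**Figure D3:**
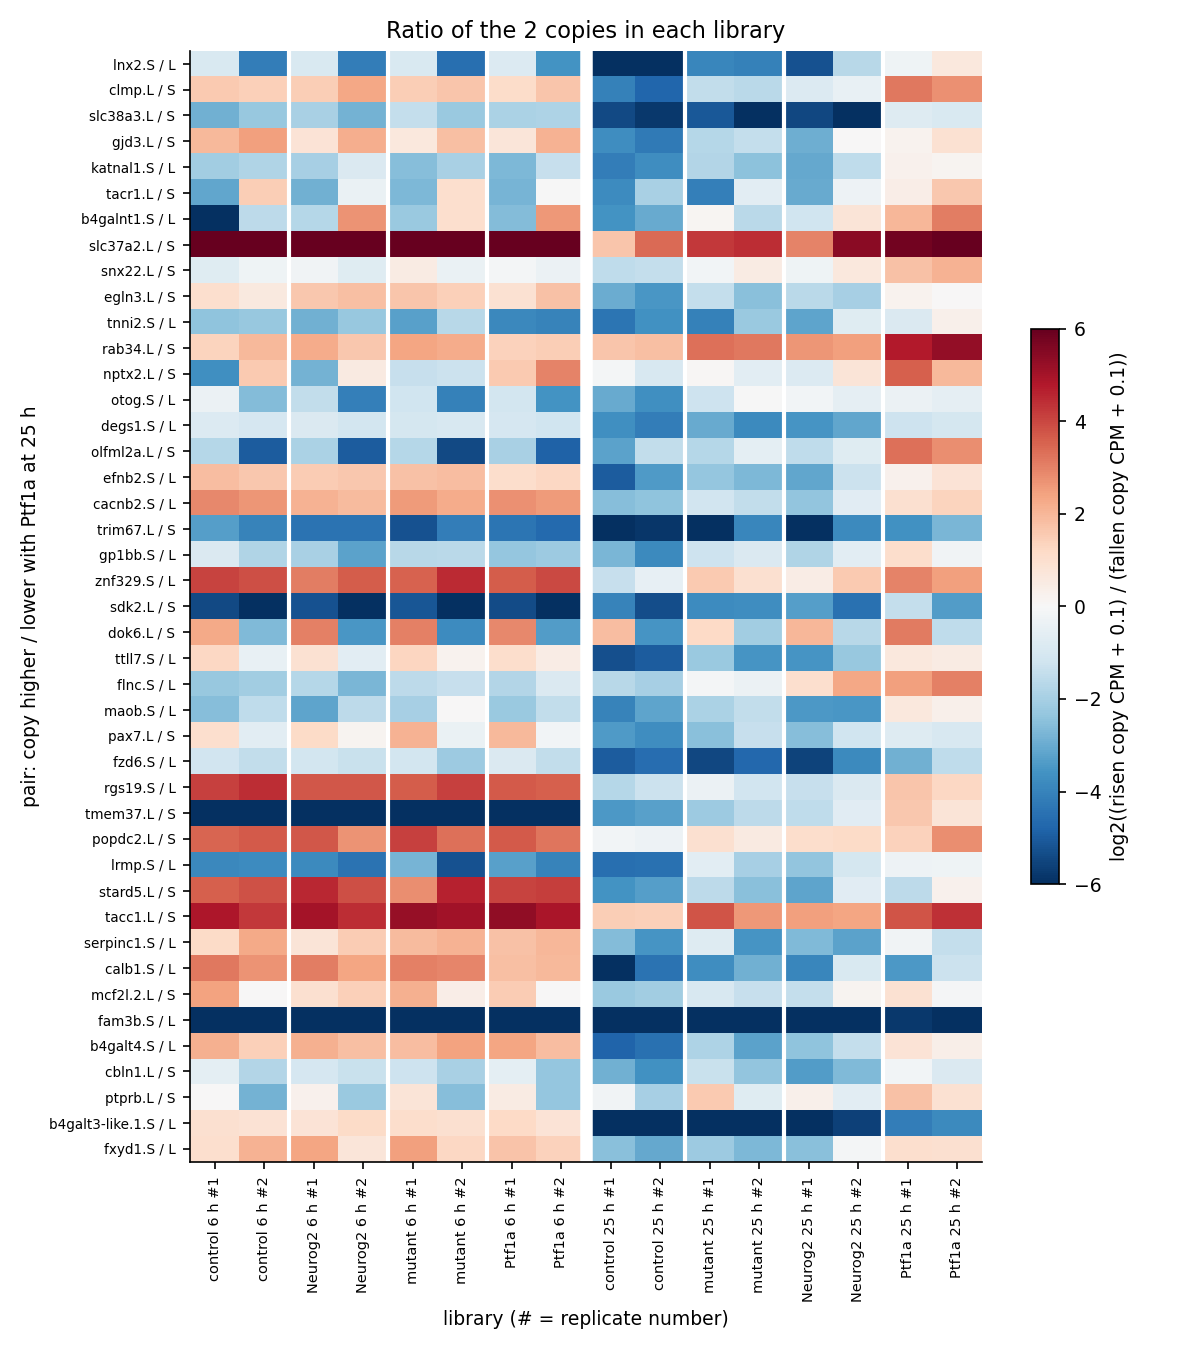
Log2 ratio of the Ptf1a-high to the Ptf1a-low copy (CPM + 0.1 each) of 43 of the 44 pairs (rows) in each of the 16 libraries (columns), red where the Ptf1a-high copy was the more abundant, with colours capped at 6. Most rows are blue in 25 h control caps, and more are red in 25 h Ptf1a caps, both of which chose the pairs.

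The question whether these copies already separated early was asked in the 6 h libraries, which the choice of pairs did not use. No change in the ratio of the copies was called with Ptf1a at 6 h in any of the 44 pairs (0.600% of all 7996 pairs tested were called; edgeR quasi-likelihood test of the copy ratio, Benjamini-Hochberg adjusted p under 0.05). Unadjusted p was under 0.05 in 3 pairs, and limma called 0. The median change was 0.04, against -0.01 over all pairs tested, and it pointed to the Ptf1a-high copy in 22 pairs and to the Ptf1a-low copy in 22. The same test called 0 of 44 with Neurog2 at 6 h (0.138% of all pairs, unadjusted p under 0.05 in 2, limma 0) and 0 with the mutant (0.388%, 2 and 0). These 3 comparisons share the 6 h control libraries. Calls were rare over all pairs in each of them, so a count of 0 among 44 is near the overall share. It is not read as particular to these pairs. With Ptf1a the fitted changes ran from -6.29 to 7.67, and some rest on a copy with 0 counts in a group. The SE was 0.253 for degs1 but 3.31 for b4galnt1 and 5.96 for dok6. In b4galnt1 and dok6, 1 copy differed widely between the replicate numbers in all 4 groups at 6 h, as described below. The main test did not model this difference, so it stayed in the error. With the replicate number as a block, 0 of 44 pairs were called in each of these 3 comparisons. For pairs with a wide SE, a p above the threshold does not show that the ratio was unchanged at 6 h.

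Single copies were called at 6 h in a few cases. With Ptf1a 2 of the 88 copies were called (2.27%, beside 0.902% of 30384 genes, edgeR quasi-likelihood test with TMM scaling). Unadjusted p was under 0.05 in 17. Counts of calls this small, here and with Neurog2 and the mutant below, are not read as particular to these pairs. Counts by unadjusted p, limma or DESeq2 have no share over all features beside them in this account. None of them is read as particular to these pairs. The ligand copy efnb2.L rose from 6.35 and 7.63 CPM in control caps to 21.7 and 20 CPM, a log2 fold change of 1.79 ± 0.217 (SE, edgeR adjusted p = 0.00135). It was thus higher early with Ptf1a, although it was the lower copy later. The other copy, efnb2.S, was at 45.2 and 47.5 CPM against 23.4 and 23.7 CPM, which did not pass (log2 fold change 1.19, edgeR adjusted p = 0.568). The ganglioside synthase copy b4galnt1.S rose to 1.48 and 3.07 CPM from 0 and 0.0636 CPM (edgeR adjusted p = 0.00698). Its control level rested on 2 counts against 659, a ratio of 79.7 with an exact 95% interval of 22 to 659, which covers counting error only. Without control library 1 the adjusted p of b4galnt1.S was 0.103. DESeq2 called 7 copies in this comparison, adding flnc.L, flnc.S, fzd6.S and nptx2.L as higher and tnni2.S as lower.

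The copy b4galnt1.S was called at 6 h with Neurog2 and the mutant too, at 2.58 and 3.03 CPM and at 1.51 and 1.22 CPM. It was the only one of 88 called with Neurog2 (0.250% of all genes; edgeR adjusted p = 0.0135, and 0.222 and 0.106 without control library 1 or 2). With the replicate number as a block within each time, a fit added after the data were seen, the edgeR adjusted p of b4galnt1.S was 0.0695 with Neurog2 and 0.0747 with the mutant, so neither call held there. The mutant gave 2 calls (0.606% of all genes), b4galnt1.S (edgeR adjusted p = 0.0229) and efnb2.L at 17 and 12.9 CPM (log2 fold change 1.23 ± 0.215, adjusted p = 0.0227). Neither call held without mutant library 1 or without either control library, where the adjusted p of b4galnt1.S was 0.105, 0.287 and 0.105 and that of efnb2.L 0.243, 0.272 and 0.175. The neuronal pentraxin copy nptx2.L was at 3.37 and 4.19 CPM in 6 h Ptf1a caps against 0.0203 and 0.573 CPM in control caps, which did not pass (edgeR adjusted p = 0.141).

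At 25 h, Neurog2 and mutant caps could be compared without using the libraries that chose the pairs. No copy ratio differed between them in the 44 pairs, or in any of the 7996 pairs tested (0%; unadjusted p under 0.05 in 1 member pair, limma 0). Of the 88 copies 0 were called (0.00987% of all genes; unadjusted p under 0.05 in 2). DESeq2 called flnc.S, the filamin copy, which was at 6.04 and 23 CPM in Neurog2 caps and 1.48 and 1.79 CPM in mutant caps. The spread between the 2 libraries of a group was wide here, as for b4galnt1.S above, so that a p above the threshold does not show that the groups are alike.

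The course with time could be tested in Neurog2 and mutant caps. From 6 h to 25 h the ratio changed in 24 of 44 pairs in Neurog2 caps (54.5%), beside 50.5% of all pairs tested. In mutant caps it changed in 24 of 44 (54.5%), beside 51.1%. The share of changed pairs was therefore close to that of all pairs, and the direction is what can be described. In Neurog2 caps 19 moved toward the Ptf1a-low copy (43.2%, beside 30.9% of all pairs) and 5 toward the Ptf1a-high copy (11.4%, beside 19.6%). In mutant caps 21 moved toward the Ptf1a-low copy (47.7%, beside 31.9%) and 3 toward the Ptf1a-high copy (6.82%, beside 19.2%). The median change of the ratio of the Ptf1a-high to the Ptf1a-low copy was -2.14 and -1.79 on the log2 scale, against -0.3 and -0.32 over all pairs, and both medians were the same with pairs at 0 counts set to a floor of 3 counts per group. The pairs called in both kinds of caps numbered 22, which is 91.7% of the calls in each. This overlap was not counted over all pairs tested, so it is not read as particular to the 44 pairs.

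The libraries of this test had no part in the choice of the pairs, but the naming of the copies did rest on 25 h caps, so the direction is a description and is not read as particular to these pairs. The level minimum was also set in 25 h caps, which favours copies that rise with time. The shares of all genes below include genes without that minimum, so they are not a like background for a rise or fall. Copy by copy, 63 of the 88 copies changed in Neurog2 caps (71.6%, beside 60.4% of all genes) and 59 in mutant caps (67.0%, beside 59.2%). In Neurog2 caps 28 of the 44 Ptf1a-low copies rose with time (63.6%, beside 30.7% of all genes) and 3 fell. Of the Ptf1a-high copies 23 rose (52.3%) and 9 fell (20.5%, beside 29.7% of all genes). In mutant caps 28 Ptf1a-low copies rose (63.6%, beside 28.6%) and 3 fell, and 18 Ptf1a-high copies rose (40.9%) and 10 fell (22.7%, beside 30.7%). These fold changes use TMM scaling, which places a change with time 0.58 (Neurog2 caps) and 0.63 (mutant caps) higher on the log2 scale than library totals do.

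Among single pairs, b4galt3-like.1 had the lowest adjusted p in both kinds of caps. Its S copy went from 24.8 and 22.1 CPM to 0.532 and 0.824 CPM in Neurog2 caps, while its L copy went from 13.8 and 9.97 CPM to 51.5 and 44.6 CPM. The ratio of S to L moved by -7.17 ± 0.306 (SE, edgeR adjusted p = 1.28e-07), and by -7.68 ± 0.311 in mutant caps (adjusted p = 9.26e-08). Its S copy fell and its L copy rose, and in mutant caps b4galt3-like.1.S went from 21.7 and 21.8 CPM to 0.412 and 0.513 CPM. The neighbouring b4galt4 moved by -4.16 ± 0.583 and -4.99 ± 0.585 (edgeR adjusted p = 0.000148 and 3.91e-05), but there both copies rose. Its L copy went from 0.379 and 0.537 to 18.2 and 18.7 CPM in Neurog2 caps and its S copy from 2 and 2.15 to 3.33 and 6.8 CPM. Because the L models of these neighbours overlap, their L values and ratio changes are uncertain, and the pairs are not independent examples.

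The rgs19 ratio moved by -4.9 ± 0.354 in Neurog2 caps and -4.68 ± 0.352 in mutant caps (edgeR adjusted p = 1.54e-06 and 1.97e-06). In Neurog2 caps rgs19.S fell from 26.1 and 33.7 to 9.11 and 9.97 CPM and rgs19.L rose from 1.91 and 2.46 to 23.9 and 18.1 CPM. The degs1 ratio moved by -2.34 ± 0.257 and -2.43 ± 0.258 (edgeR adjusted p = 2.63e-05 and 1.98e-05). This came with a rise of degs1.L from 38.4 and 50 to 132 and 114 CPM in Neurog2 caps, while degs1.S at 21 and 22.9 against 11.4 and 12.9 CPM did not pass (log2 fold change -0.27, edgeR adjusted p = 0.322). For efnb2 the change was -3.76 ± 0.589 and -4.34 ± 0.582 (edgeR adjusted p = 0.000315 and 0.000103).

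The transporter pair slc38a3 moved by -3.36 ± 0.515 in Neurog2 caps and -3.66 ± 0.486 in mutant caps (edgeR adjusted p = 0.000274 and 9.71e-05), with slc38a3.S rising from 2.78 and 2.4 to 74.4 and 64.3 CPM in Neurog2 caps. Changes of clmp were -2.92 ± 0.594 and -3.57 ± 0.585 (edgeR adjusted p = 0.00183 and 0.000419). Those of egln3 were -3.57 ± 0.451 and -3.57 ± 0.452 (edgeR adjusted p = 6.88e-05 and 6.71e-05), where egln3.L fell and egln3.S rose. In stard5 the L copy fell from 30.9 and 16.3 to 1.34 and 2.76 CPM in Neurog2 caps and the S copy rose from 1.26 and 1.01 to 12.6 and 4.51 CPM, a ratio change of -6.29 ± 0.966 (edgeR adjusted p = 0.000277).

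The pairs that moved the other way were otog, gp1bb, flnc, tmem37 and lrmp in Neurog2 caps, and otog, tmem37 and lrmp in mutant caps. In tmem37 the S copy fell from 35.1 and 29.7 to 0.578 and 0.453 CPM in Neurog2 caps while tmem37.L, at 0 counts at 6 h, was at 0.137 and 0.247 CPM. With tmem37.L at a floor of 3 counts over the 6 h group, its ratio moved by at least 8.39 on the log2 scale. Both flnc copies rose in Neurog2 caps, flnc.S from 0.18 and 0 to 6.04 and 23 CPM and flnc.L from 0.829 and 0.568 to 2.91 and 4.51 CPM, and the ratio moved by 4.77 ± 0.942 (edgeR adjusted p = 0.00195). In mutant caps the flnc ratio did not pass (1.79 ± 0.85, edgeR adjusted p = 0.106). The difference between these changes was tested as an interaction, which called 0 of 44 pairs (0% of all pairs; unadjusted p under 0.05 in 3, limma 0).

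Leaving out each of the 4 libraries of a time comparison in turn, 17 of the 24 calls in Neurog2 caps and 20 of the 24 in mutant caps held every time. Those of b4galt3-like.1, b4galt4, rgs19, degs1, efnb2, slc38a3, clmp, egln3 and stard5 held in both.

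**Figure D4:**
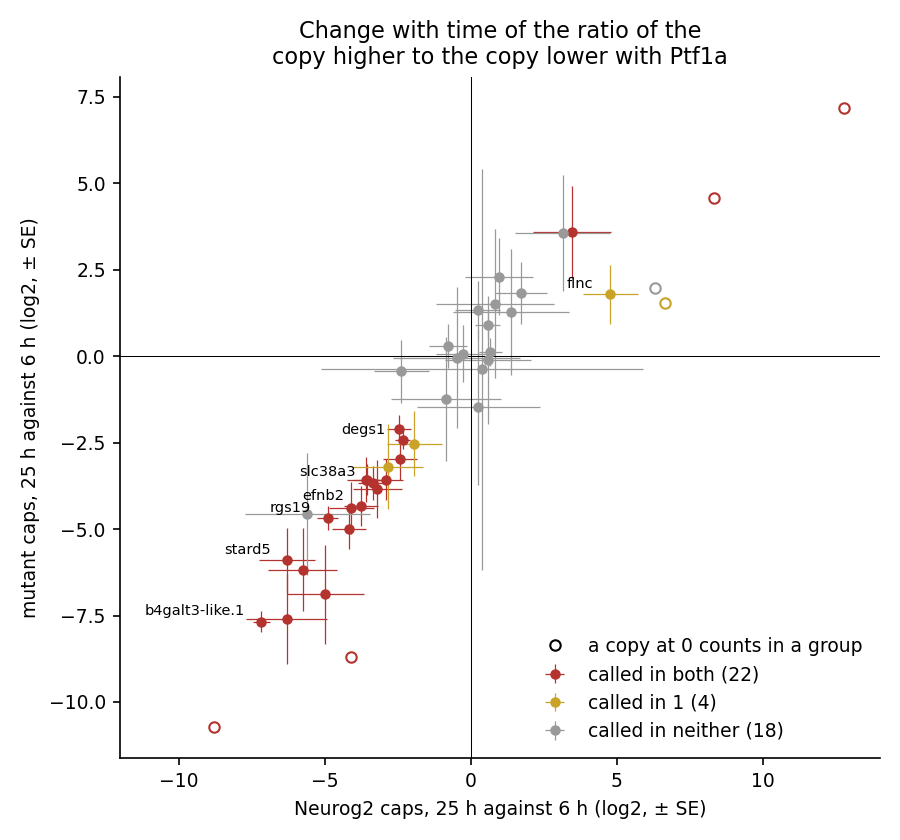
Log2 change from 6 h to 25 h of the ratio of the Ptf1a-high to the Ptf1a-low copy in Neurog2 caps (horizontal axis) and mutant caps (vertical axis) for the 44 pairs, with SE bars from edgeR. Red points were called in both (22 pairs), yellow in 1 (4) and grey in neither (18); open circles have a copy with 0 counts in a group, and their fitted values depend on the prior count. More called pairs lie at the lower left, toward the Ptf1a-low copy, than at the upper right.

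Some copies differed widely between the replicate numbers. At 6 h, 8 of the 88 copies (9.09%) were at least 2-fold apart between library 2 and library 1 in the same direction in all 4 groups, beside 405 of 12854 expressed copies (3.15%). Among them were lnx2.L, tacr1.S, b4galnt1.L, otog.L, olfml2a.S, dok6.S and ptprb.L. At 25 h there were 4 (4.55%, beside 0.762%), tacr1.S, dok6.S, serpinc1.S and calb1.L. In every one of these cases only 1 copy of the pair was split. How often this holds over all expressed pairs was not counted, so it is not read as particular to these pairs. The copy lnx2.L was at 0.997 and 11.9 CPM in 6 h control caps, 1.3 and 11.7 CPM in Neurog2 caps, 1.1 and 10.9 CPM in mutant caps and 0.841 and 8.72 CPM in Ptf1a caps. Its partner lnx2.S stayed between 0.371 and 0.631 CPM in these libraries. The copy b4galnt1.L went the other way, at 12.2 and 0.382 CPM in 6 h control caps and 9.42 and 0.419 CPM in Ptf1a caps. The adaptor copy dok6.S was at 0.0814 and 3.37 CPM in 6 h and 0.11 and 2.42 CPM in 25 h control caps, and dok6 was the 1 pair that did not move in opposite directions within both numbers. The other 43 did, and 22 passed the 2-fold rule in both copies within each number. These ratios use the same 25 h libraries that chose the pairs, so the rule favours both counts, which are no support for the set. What the numbers stand for is not given in the labels.

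**Figure D5:**
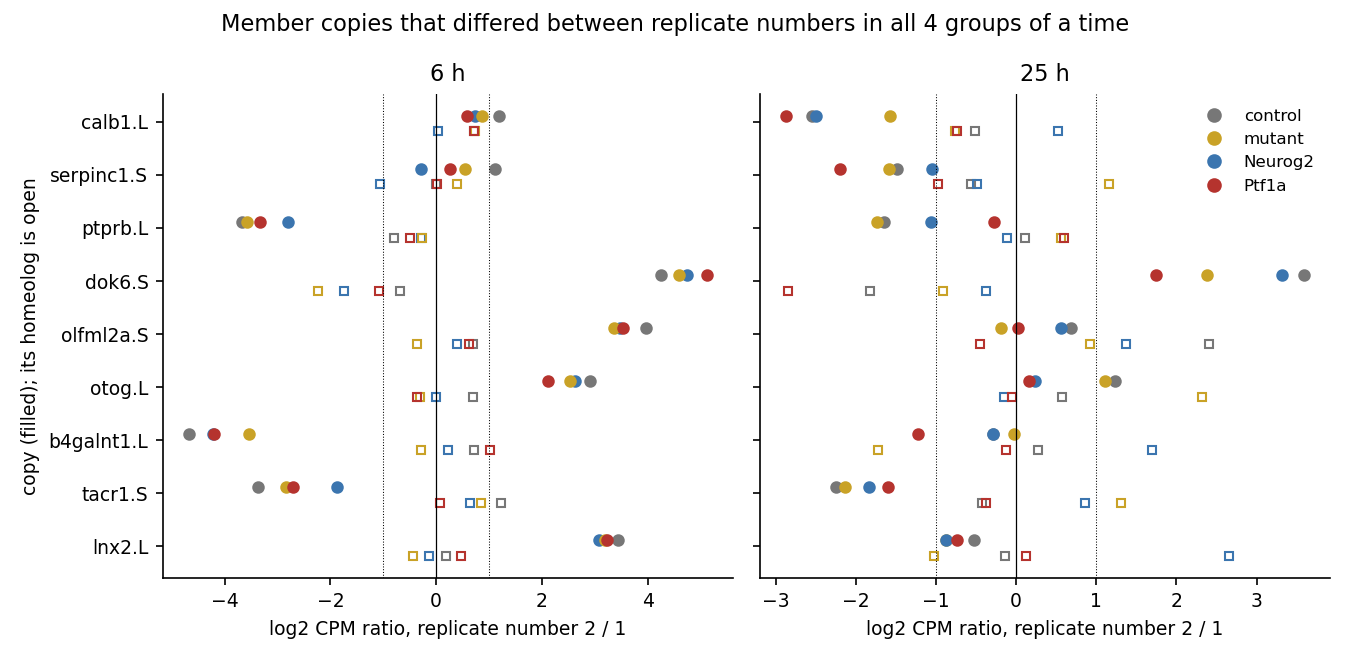
Log2 ratio of CPM + 0.1 in replicate number 2 over number 1 for 9 of the member copies that were at least 2-fold apart (dotted lines) in the same direction in all 4 groups at 6 h or 25 h (filled circles), with the other copy of the pair as open squares. The 4 groups are coloured and lie close together for the filled circles at 6 h, as for lnx2.L and dok6.S on the right and b4galnt1.L and ptprb.L on the left.

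In position the pairs were mostly ordinary homeologs. In the annotation of build 9.1, 40 of the 44 pairs (90.9%) lay on matching L and S chromosomes, beside 91% of 6415 annotated expressed pairs. The exceptions were slc37a2, otog, znf329 and sdk2. The copies shared a median of 8 named neighbours among the 10 genes on each side, against 9 over all pairs. Pairs otog, znf329 and cbln1 shared no neighbour (6.82%, beside 0.92%), so position in this annotation does not pair their copies. In the RefSeq annotation of build v10.1, 34 member pairs had both symbols, and otog and znf329 were not among them. Of these 34 pairs 33 lay on matching chromosomes, the exception being cbln1, whose copies shared 7 neighbours there, and 0 lacked shared neighbours. The gene models differed more than 2-fold in length in 10 pairs (22.7%, beside 19.9%), degs1 and rgs19 among them.

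A copy overlapped another gene model in 16 of the 44 pairs (36.4%, beside 25.8%), in 19 copies. Most of the overlapping models had 0 counts in 25 h Ptf1a and control caps. How reads on 2 overlapping models were counted was not examined here. A partner at 0 counts therefore does not show that the level of the member copy is free of the overlap. Those with counts were b4galt4.L with b4galt3-like.1.L, the model that overlaps fam3b.S (45.5 and 30.5 CPM on average in Ptf1a and control caps), zbtb37.S beside serpinc1.S (10.3 and 7.27 CPM) and il16.S beside stard5.S (0.269 and 0.3 CPM). The partner of fam3b.S was far more abundant than fam3b.S itself, at 3.53 and 2.05 CPM in Ptf1a caps, so the levels of fam3b.S and serpinc1.S are uncertain. How reads that map to both copies of a pair were treated is not given in the sources used here.

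The threshold cuts through a continuous range. Just inside it stood ptprb, b4galt3-like.1 and fxyd1, with smaller absolute log2 ratios of 1.027, 1.012 and 1.006. Just outside stood cdo1, nfatc1 and dnah3, with 0.997, 0.988 and 0.986. The axonemal dynein gene dnah3 would have entered with its S copy at 19.1 CPM in Ptf1a caps against 86.5 CPM in control caps. The keratin gene krt19 was not a member, since krt19.L was at a log2 ratio of only -0.33 while krt19.S was at 3.15. In the neuronal tubulin gene tubb2b both copies were higher, by 3.99 and 9.27.

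None of the 11 lists of markers and pathway genes used to describe these caps held an opposite pair. They comprised 53 expressed pairs, of which 32 were at least 2-fold higher in both copies with Ptf1a at 25 h, 6 lower in both copies and 0 opposite. Among neuronal markers 4 of 5 expressed pairs were higher in both copies, among Notch pathway genes 10 of 12 and among neural crest markers 3 of 3. Of the genes of inhibitory fate 8 of 10 were higher in both copies and 1, gata2, was lower in both. The copy gata2.L was at 169 and 133 CPM in control caps and 67.8 and 51.2 CPM in Ptf1a caps. Both gata3 copies were lower too, by less than 2-fold. All 3 expressed pairs of multiciliated cell markers were lower in both copies, as was 1 pair each of the ionocyte and mesoderm lists. The epidermal list held 3 expressed pairs, of which none passed 2-fold in both copies in either direction. Opposite pairs made up 0.685% of all expressed pairs, so a count of 0 among 53 is not read as particular to these lists.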

How the data were processed

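RNA from 16 animal cap libraries in 8 groups of 2 was analysed. The authors deposited raw counts per gene, made with featureCounts per the submitters' processing notes, which also name CASAVA 1.8, STAR 2.5 and DESeq2 1.8. Strandedness and the treatment of reads with several hits are not given in the sources used here. All columns were mapped to samples (0 unmapped). Levels are counts per 1000000 counts of the library (CPM). Positions are from the deposited annotation of build 9.1, whose header gives version 1.8.3.1 while its name gives a later release, and neighbours also from RefSeq v10.1.

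Tests used edgeR 4.0.16 in R 4.3.3 on all 16 libraries, with 8 residual degrees of freedom, robust quasi-likelihood fits and Benjamini-Hochberg adjustment over all features of a comparison. The copy test took 30384 genes after filterByExpr with TMM scaling (common biological coefficient of variation 0.378). The test of the copy ratio took 7996 pairs, with a mean per library and an S to L log ratio per group (0.277). Both were tested on simulated counts. The alternatives used limma 3.58.1, DESeq2 1.42.0, other scalings, filters and pseudocounts, a replicate block and libraries left out. The 6 tested comparisons leave out 25 h Ptf1a and control libraries, which chose the pairs. Members, lists and the rule for naming pairs were chosen with earlier results of these data known. The rule named the 8 pairs with the largest smaller log2 ratio, the 6 whose less abundant copy had the highest level, up to 10 with the lowest adjusted p among called ratios, 3 on each side of the threshold, and krt19 and tubb2b; other members were named for their role after their values were seen. One pair, counted in all totals, is not reported here by name. Pairs with only an identifier (289) were left out, and sequences of the copies were not analysed here. Counts are of reads without molecular identifiers, so depth, 31436437 to 228346016 counts per library, limits mainly copies under 1 CPM.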

Additional observations from a re-analysis of the deposited data

How the results depend on the processing

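The number of opposite pairs was 44 as defined, 14 with a pseudocount of 1 CPM and 20 with a level minimum of 2 CPM, and 47 to 60 when 1 of the 4 choosing libraries was left out, of which 17 pairs passed every time. It was 66 with TMM or DESeq2 scaling, 59 with no minimum and 39 with no overlap between libraries. Copies called with Ptf1a at 6 h numbered 2, but 7 with DESeq2 and 1 to 3 without 1 library. With Neurog2 at 6 h the count was 1, 2 with DESeq2 and 0 to 1 without 1 library, and with the mutant 2 and 0 to 2. Between Neurog2 and mutant caps at 25 h it was 0, and 1 with DESeq2. The ratio calls with time ranged from 20 to 23 (Neurog2) and 20 to 24 (mutant) without 1 library. One direction reversed: lnx2.S, higher at 25 h than at 6 h in Neurog2 caps by 1.95 on the log2 scale, was at -0.09 without 25 h library 2 and at 2.76 without 25 h library 1. Of 384 alternative values of called ratios 355 kept their call, and 1048 of 1143 of called copies. The Ptf1a to control ratios of the named pairs were less stable, and of their 304 alternative values 190 stayed the same and 114 moved. Depth limits copies under 1 CPM. The cause of these changes was not tested.

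The replicate numbers are not stated to pair the libraries, and what sets the numbers apart is not given. The differences between numbers correlated at 0.745 to 0.861 between groups of 6 h, 0.113 to 0.562 between groups of 25 h and 0.117 to 0.251 between times, over 21372 genes. The 6 h groups thus shared much of the difference between numbers, which the main tests did not model. With a replicate block the ratio calls with time were 28 (Neurog2) and 27 (mutant), the copies called with Neurog2 at 6 h 2, and the other 6 h counts were the same; the members by within-number ratios were 44. With a block within each time, added after the data were seen, ratio calls were 30 and 28, and copies called with Ptf1a at 6 h were 9, while b4galnt1.S lost its call with Neurog2 and with the mutant.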
